A study of Mus musculus with 6 samples.

Results

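The genes described here are 47 mouse genes that copy DNA or supply the nucleotides for it. They were chosen by name: every array spot that is not a control spot and carries the symbol of one of the 47 genes, or an older or newer symbol of the same gene, was taken with all its probes. All 47 had at least 1 probe, among 27729 genes and other named transcripts on the array, and together they had 71 probes of 60 bases. A probe was tested when the scanner flagged it well above background on every array of the control group, of the Magic-F1 group or of both. By that filter 57 probes passed, representing 46 of the 47 genes. Of these, 42 were well above background on all 6 arrays, while Orc1, Cdc45, Pole2 and Top2a passed through the control arrays alone. Pola1, the catalytic subunit of DNA polymerase alpha, had a single probe, which stayed below that limit on all 6 arrays.

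The samples were total RNA of proliferating satellite cells, the stem cells that lie along muscle fibres, from skeletal muscle of female mice. Magic-F1 is an engineered protein built from parts of hepatocyte growth factor that activates the receptor MET, and 3 samples came from Magic-F1+/+ mice, which the series describes as a model of muscle hypertrophy. The other 3 samples came from control mice, whose titles carry the word MLC3F. Each sample was labelled with Cy3 and hybridised to 1 single-colour Agilent array. The labels give neither the promoter that drives Magic-F1, nor the meaning of MLC3F, nor the age of the mice. They call the samples biological triplicates, but no animal or culture is named for any of them, so the spread behind the p-values may be technical.

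Replication starts at origins that the origin recognition complex marks and on which Cdc6 and Cdt1 load the MCM helicase. Kinases and the GINS and Cdc45 proteins then start the helicase, primase and the polymerases copy the strands, the sliding clamp Pcna holds the polymerases on DNA, and Fen1 and Lig1 finish the lagging strand. The deoxynucleotides come from ribonucleotide reductase, thymidylate synthase, thymidine kinase and dUTPase, and transcription factors of the E2F family drive many of these genes as cells enter S phase. Satellite cells in a resting muscle are mostly out of the cell cycle and resume DNA synthesis when they are activated.

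Signals on the arrays are given as log2 of the processed signal relative to the array's own 75th percentile, so 0 is the 75th percentile of that array. This scale compares a probe between arrays and not 1 probe with another. A change is the Magic-F1 mean minus the control mean. The 75th percentile itself was at a signal of 341 to 356 on the Magic-F1 arrays and 275 to 292 on the control arrays. The share of spots well above background was 49.2% to 52.0%, and no array had a saturated spot. The number of arrays limits the precision.

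Some of the sequences behind the measurements are printed here because agreement between probes of a gene is part of the evidence. The positions are those of the array's files on mm9, and each of these probes but the first for Tyms covers more of the genome than its 60 bases, as a probe to spliced RNA does. The 2 Tyms probes overlap, and capitals mark the longest run of 23 bases that they share without a difference. The probes of Cdc45 (chr16:18793399-18794880), Gins1 (chr2:150735520-150738566), Tyms (chr5:30387605-30387664 and chr5:30387625-30388518) and Top2a (chr11:98857244-98858058 and chr11:98876361-98877388) read as follows.
Cdc45: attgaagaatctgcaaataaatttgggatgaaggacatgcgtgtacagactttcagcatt
Gins1: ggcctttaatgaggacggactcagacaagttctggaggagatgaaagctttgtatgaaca
Tyms, the first probe: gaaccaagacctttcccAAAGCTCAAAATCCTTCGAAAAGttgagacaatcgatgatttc
Tyms, the second probe: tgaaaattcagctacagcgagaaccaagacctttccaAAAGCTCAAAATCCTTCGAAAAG
Top2a, the first probe: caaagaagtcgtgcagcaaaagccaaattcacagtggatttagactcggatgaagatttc
Top2a, the second probe: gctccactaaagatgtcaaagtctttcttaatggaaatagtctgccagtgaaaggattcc

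Most of the replication genes were lower in the Magic-F1 samples. Of the 46 tested genes, 39 fell, 6 rose and 1, Pcna, did not pass limma's test (Benjamini-Hochberg adjusted p under 0.05 over all tested probes, 2-sided). Changes were common on these arrays, and over all 14736 tested genes 47.9% were called lower and 40.5% higher. The fall was also large: 32 of the 46 genes were at least 2-fold lower, against 28.6% of all tested genes, and 8 had a fitted change of at least 8-fold, against 5.59%. Those 8 were Rrm2, Tyms, Tk1, Top2a, Prim1, Orc1, Cdc45 and Dut. With a normexp background Orc1, Cdc45 and Top2a were not among them, and 5 remained. The filter favours a fall in Magic-F1 for a gene that passed through the control arrays alone. Among the 42 genes well above background on all 6 arrays, 35 fell, 6 rose and 28 were at least 2-fold lower. Their median was −1.51, against −0.16 for all genes under that filter, where 16042 of 18142 probes were called in either direction. The shares of all genes that fell or rose under that filter were not counted. The median change of the 46 genes was −1.71, and that of all tested genes was −0.15. By probe, 49 of the 57 tested probes were called lower, against 46.5% of all tested probes, 6 were called higher and 2 were not called.

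**Figure D1:**
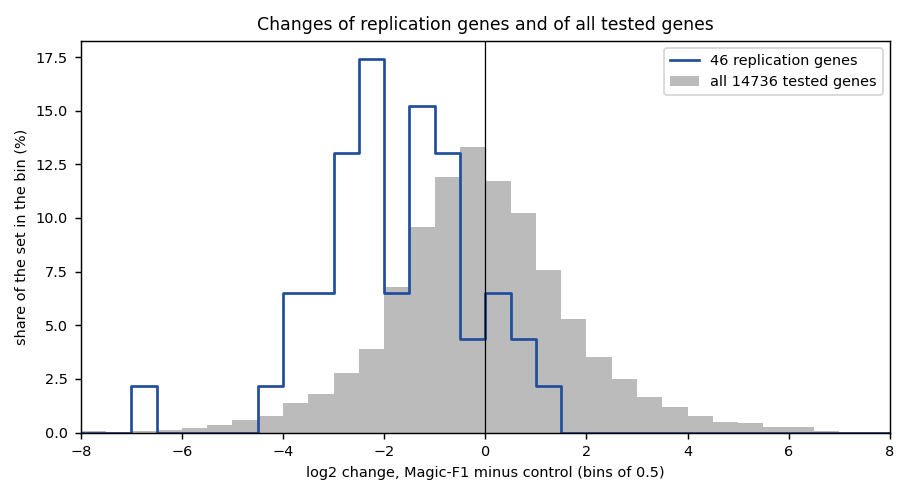
Distribution of the fitted log2 change (Magic-F1 minus control, in bins of 0.5) over the 46 tested replication genes (line) and over all 14736 tested genes (grey bars), each as a percentage of its set. The replication genes lie around their median of −1.71 and all genes around −0.15; 22 genes below −8 and 5 above 8 are not drawn.

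The groups were well separated against the spread between arrays. In 39 of the 46 genes every Magic-F1 array was below every control array, as in 48.7% of all tested genes. In 6 every Magic-F1 array was above, and only in Pcna did the groups overlap. The shares of all tested genes that were separated upwards or overlapped were not counted, but 40.5% of all tested genes were called higher. The median SD of a gene was 0.05 over the Magic-F1 arrays and 0.065 over the control arrays on the log2 scale. RNA of whole samples cannot tell fewer cells of a type from less RNA per cell, and that holds for every value here.

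Markers of several cell types differed between the groups together with the replication genes. Signal was summed over each list with the 75th percentile of an array as 1, so bright probes weigh most in every sum. Among the replication genes the brightest was Pcna, which changed by −0.02. The replication genes summed to 359 to 364 on the Magic-F1 arrays and 815 to 852 on the control arrays. Granulocyte precursor markers, genes of neutrophils and their bone marrow precursors, summed to 0.609 to 0.643 against 629 to 678. All 12 tested markers of that list were lower, and Elane, Ms4a3, Camp, Ltf, Ngp, S100a9, Lcn2, Gfi1 and Chil3 were all short of the well-above-background limit on the Magic-F1 arrays. Only 5 markers of the list were well above background on all Magic-F1 arrays, against 12 on all control arrays. The filter favours a fall for markers that passed through the control arrays alone. Satellite cell and myoblast markers summed to 71.7 to 73.6 against 636 to 676, with 11 of 13 lower and 1 higher. Among their defining genes Pax7, which marks satellite cells, was short of that limit on all Magic-F1 arrays, and Pax3 and Myf5 on all 6 arrays. Of the 15 listed satellite cell and myoblast markers, 12 were well above background on all Magic-F1 arrays and 13 on all control arrays.

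Other lists went the opposite way. Macrophage markers summed to 1436 to 1504 on the Magic-F1 arrays and 425 to 452 on the control arrays, with 13 of 14 higher and 1 lower. For adipocyte markers the sums were 762 to 800 and 147 to 150, and all 9 tested markers were higher. Endothelial markers were lower in 8 of 10 tested genes, although their summed signal was 16.6 to 18.1 against 10.7 to 11.0. Pecam1, Cdh5, Robo4, Sox18 and Tie1 were short of the well-above-background limit on all Magic-F1 arrays. Only 3 of the 11 listed endothelial markers were well above background on all Magic-F1 arrays, against 10 on all control arrays. Here too the filter favours a fall for markers that passed through the control arrays alone. Of 11 erythroid precursor markers only 4 were tested, of which 2 were lower and 2 higher, with sums of 6.68 to 7.06 against 4.27 to 5.05. Lymphocyte markers were lower in 4 and higher in 2 of 8 tested genes, with low sums of 0.875 to 0.894 against 1.46 to 1.66. Fibroblast markers were lower in 5 and higher in 5 of 10 genes, with sums of 606 to 613 against 734 to 760. The part of these cell types in the changes of the replication genes was not tested.

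**Figure D2:**
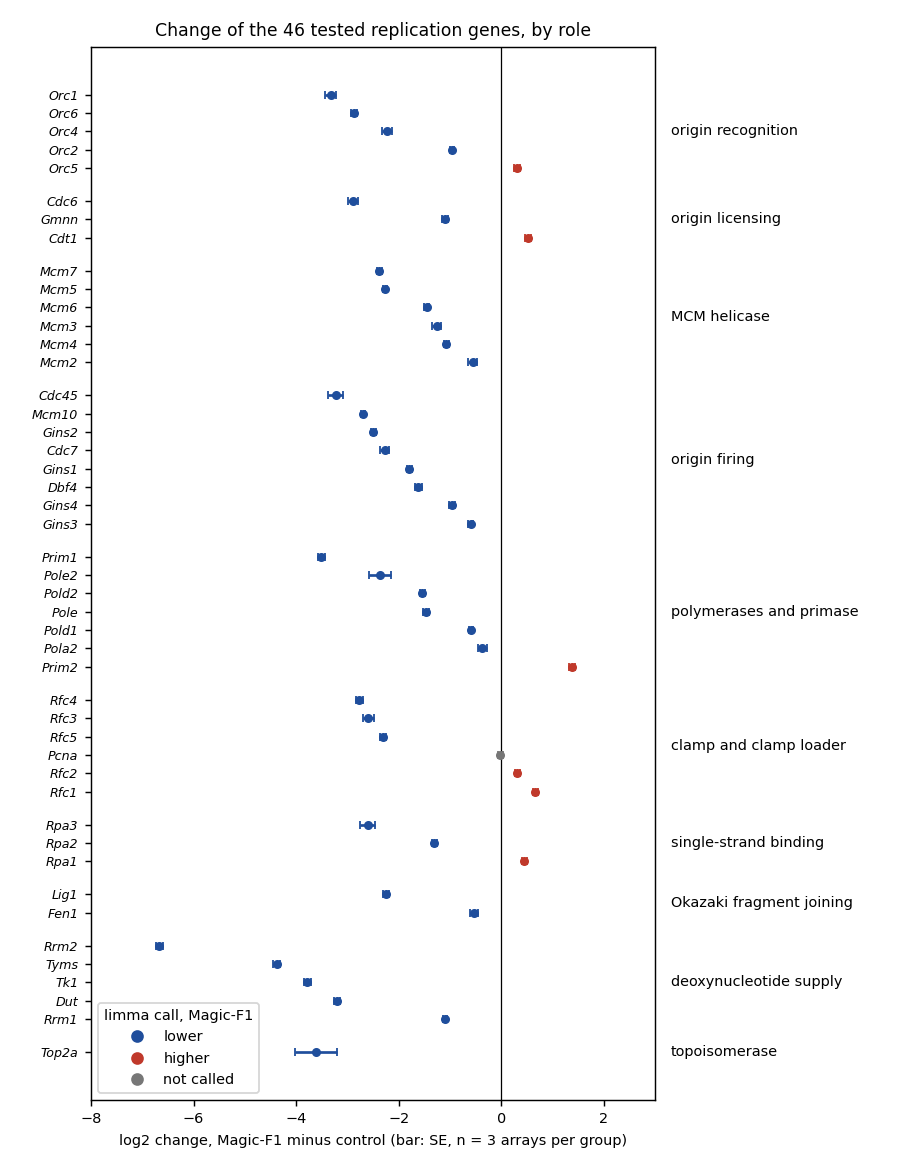
Fitted log2 change (horizontal axis, Magic-F1 minus control) of each of the 46 tested genes, grouped by role, with the standard error as a bar (n = 3 arrays per group) and colour for limma's call. The 6 genes that rose are Orc5, Cdt1, Prim2, Rfc2, Rfc1 and Rpa1, Pcna lies at −0.02, and Rrm2 has the lowest change at −6.67.

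The origin recognition complex binds origins and stays the platform for loading the helicase. The set holds 5 of its subunits, of which 4 were lower and 1 was higher, with a median change of −2.23. Its subunit Orc3 was read with the other replication factors, and its own value is not given here. Orc1, the subunit whose level rises and falls with the cell cycle in many cells, changed most. Its signals were −1.38, −1.41 and −1.54 on control replicates 1, 2 and 3 and −4.74, −4.59 and −4.98 on Magic-F1 replicates 1, 2 and 3. The groups were far apart, and the change was −3.33 (SE 0.11, adjusted p 6.46e-07). One of the 3 Magic-F1 arrays did not measure Orc1 well above background, and with a normexp background the change was −1.43. Orc5, an ATP-binding subunit of the core complex, read −1.69, −1.53 and −1.59 on the control arrays and −1.37, −1.22 and −1.31 on the Magic-F1 arrays. All Magic-F1 arrays lay slightly above all control arrays, a rise of 0.31 (SE 0.065, adjusted p 0.00465) that lost its call with a normexp background (0.07, adjusted p 0.216). Orc6 fell by 2.87, Orc4 by 2.23 and Orc2 by 0.96 on the log2 scale. Orc4 had 3 tested probes with changes of −2.23, −2.39 and −0.37, all called lower but unequal in size.

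Among the licensing factors, Cdc6 and Gmnn fell and Cdt1 rose, with a median change of −1.10. Cdc6, the ATPase that brings the helicase to the origin, read 0.31, 0.20 and 0.16 on control replicates 1, 2 and 3. On the Magic-F1 arrays it read −2.70, −2.48 and −2.82, well below every control array, with a change of −2.89 (SE 0.10, adjusted p 7.43e-07) that was −2.06 with a normexp background. A second Cdc6 probe was dim and did not pass the test (−0.28, SE 0.89, adjusted p 0.779). It read −3.44, −3.24 and −6.51 on the control arrays and −4.43, −5.06 and −4.54 on the Magic-F1 arrays, so control replicate 3 alone lay below the Magic-F1 arrays there. The mean of both probes changed by −1.58. Cdt1, the partner of Cdc6 in loading the helicase, read 2.49, 2.45 and 2.59 on the control arrays and 3.08, 2.99 and 3.04 on the Magic-F1 arrays. All Magic-F1 arrays were higher, with a change of 0.53 (SE 0.057, adjusted p 0.000167). Geminin (Gmnn), the inhibitor that binds Cdt1 after licensing, fell by 1.10 on the log2 scale.

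All 6 subunits of the MCM helicase, the ring that unwinds DNA at the fork, were called lower, with a median change of −1.36. Mcm7 changed most. It read 5.57, 5.67 and 5.57 on control replicates 1, 2 and 3 and 3.20, 3.22 and 3.24 on the Magic-F1 arrays, which is 5.21-fold lower (−2.38, SE 0.048, adjusted p 1.05e-07). Mcm5 fell by 2.27, Mcm6 by 1.45, Mcm3 by 1.26 and Mcm4 by 1.07 on the log2 scale. A second probe for Mcm3 gave −1.06. Mcm2 had the smallest change and a dim probe, with −3.76, −3.78 and −3.61 on the control arrays and −4.36, −4.11 and −4.33 on the Magic-F1 arrays. The Mcm2 groups did not overlap, but the call was lost when arrays were scaled on spiked-in RNA (−0.55, adjusted p 0.00105, against −0.14, adjusted p 0.30). These 6 proteins form 1 ring in equal numbers, and their transcripts changed by unequal amounts.

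All 8 genes that turn the loaded helicase into a moving fork were called lower, with a median change of −2.04. Cdc45, a core part of the active helicase, read −1.50, −1.57 and −1.62 on control replicates 1, 2 and 3 and −4.47, −4.96 and −4.96 on the Magic-F1 arrays. That is a change of −3.23 (SE 0.14, adjusted p 2.31e-06) in the probe printed above. It was well above background on 2 of the 3 Magic-F1 arrays, and with a normexp background the change was −1.32. Mcm10, which helps to open the helicase, fell by 2.70 on the log2 scale. Cdc7 and Dbf4, the kinase that phosphorylates the MCM ring and its activating subunit, fell by 2.27 and 1.62, and by 1.32 and 1.12 with a normexp background. The second tested Cdc7 probe gave −2.11.

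The 4 GINS subunits, which join Cdc45 and the MCM ring as 1 complex, ranged widely. Gins2 fell by 2.50, Gins1 by 1.80 and Gins4 by 0.96 on the log2 scale, and the Gins1 probe printed above, which is the dimmer of its 2 probes, gave −2.36. Gins3 read 0.07, 0.01 and 0.09 on control replicates 1, 2 and 3 and −0.57, −0.55 and −0.51 on the Magic-F1 arrays. The Gins3 arrays were separated by group with a change of −0.60 (SE 0.045, adjusted p 2.87e-05), which lost its call under spike-in scaling (−0.19, adjusted p 0.0778).

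Of 8 genes of polymerases and primase, 7 were tested, 6 fell and 1 rose, with a median change of −1.47. The primase, which makes the RNA primers for DNA polymerase alpha, has a catalytic subunit, Prim1, and a large subunit, Prim2, and they moved apart. Prim1 read 3.42, 3.34 and 3.58 on control replicates 1, 2 and 3 and −0.06, −0.07 and −0.06 on the Magic-F1 arrays, which is 11.4-fold lower (−3.51, SE 0.071, adjusted p 1.06e-07). Prim2 read −4.31, −4.28 and −4.16 on the control arrays and −2.82, −2.92 and −2.89 on the Magic-F1 arrays, which is 2.59-fold higher (1.37, SE 0.06, adjusted p 2.23e-06). Every Magic-F1 array was above every control array for Prim2 and below for Prim1. The Prim2 probe was dim, and its rise was 0.36 with a normexp background, still called.

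Polymerase epsilon and delta, which copy the leading and the lagging strand, were lower in each of their subunits that belong to the set. Their subunits Pold3, Pold4, Pole3 and Pole4 were read with the other replication factors, and their own values are not given here. Pole2, the second subunit of epsilon, fell by 2.37 (SE 0.22, adjusted p 7.2e-05), with 2 of 3 Magic-F1 arrays well above background and a change of −0.90 with a normexp background. Pole, its catalytic subunit, fell by 1.47, Pold2 by 1.54 and Pold1, the catalytic subunit of delta, by 0.59 on the log2 scale. A second Pold1 probe gave −0.57, and under spike-in scaling the Pold1 call was lost (−0.18, adjusted p 0.0576). Pola2, the regulatory subunit of alpha, changed least and read −0.26, −0.23 and −0.49 on control replicates 1, 2 and 3 and −0.78, −0.67 and −0.64 on the Magic-F1 arrays. Its groups did not overlap, and the fall of 0.37 (adjusted p 0.00652) turned to 0.04 (adjusted p 0.61) under spike-in scaling. With median scaling it also lost its call (−0.24, adjusted p 0.0708).

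The sliding clamp and its loader were the most divided set, with 3 genes lower, 2 higher and 1 not called and a median change of −1.16. Pcna, the clamp itself, read 6.90, 6.93 and 6.96 on control replicates 1, 2 and 3 and 6.88, 6.98 and 6.88 on the Magic-F1 arrays. These values overlapped, and the change of −0.02 (SE 0.05) had an adjusted p of 0.725. Its sign depended on the scaling, since the change was 0.43 (adjusted p 0.000259) with quantile normalization and 0.39 (adjusted p 0.00525) with spike-in scaling. The RefSeq gene table holds 2 Pcna pseudogenes, and the probe's own record lists a predicted transcript beside Pcna, so its signal may not be that of Pcna alone.

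The loader, replication factor C, places the clamp on DNA and has 5 subunits. Rfc4 fell by 2.77, Rfc3 by 2.59 and Rfc5 by 2.31 on the log2 scale, while Rfc1, the large subunit, and Rfc2 were called higher. With a normexp background the change of Rfc3 was −1.97. Rfc4 read 3.63, 3.62 and 3.77 on control replicates 1, 2 and 3 and 0.96, 0.79 and 0.96 on the Magic-F1 arrays (adjusted p 2.91e-07). Rfc1 read 2.11, 2.08 and 2.17 against 2.78, 2.73 and 2.82, a rise of 0.66 (SE 0.05, adjusted p 2.78e-05). Both sets of arrays were separated, in opposite directions. Rfc2 was the 1 gene whose tested probes were called in opposite directions. Its first probe read 5.22, 5.22 and 5.27 on the control arrays and 5.54, 5.50 and 5.61 on the Magic-F1 arrays, a change of 0.31 (adjusted p 0.000932). The second probe read 4.42, 4.45 and 4.41 against 4.21, 4.17 and 4.28, a change of −0.21 (adjusted p 0.00618). The mean of its 2 probes changed by 0.05 (adjusted p 0.316), so the direction for Rfc2 rests on the choice of probe.

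Replication protein A, which coats single-stranded DNA, was lower in 2 of its 3 subunits and higher in the largest. Rpa3, the smallest subunit, read −2.01, −2.01 and −1.76 on control replicates 1, 2 and 3 and −4.42, −4.83 and −4.36 on the Magic-F1 arrays. The groups were apart by −2.60 (SE 0.14, adjusted p 6.28e-06), and by −1.06 with a normexp background. Rpa2 fell by 1.31 on the log2 scale in its first probe and by 1.30 in its second. Rpa1, the main DNA-binding subunit, read −0.58, −0.61 and −0.67 on the control arrays and −0.24, −0.14 and −0.14 on the Magic-F1 arrays. Its Magic-F1 arrays were all higher, by 0.45 (SE 0.052, adjusted p 0.000244).

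Both genes that finish the lagging strand were called lower, by very different amounts. Lig1, the ligase that seals Okazaki fragments, read 5.27, 5.32 and 5.33 on control replicates 1, 2 and 3 and 3.10, 2.99 and 3.08 on the Magic-F1 arrays, which is 4.75-fold lower (−2.25, SE 0.051, adjusted p 1.58e-07). Fen1, the nuclease that trims their flaps, read 2.88, 2.88 and 2.63 against 2.23, 2.27 and 2.27. The Fen1 change was −0.54 (SE 0.081, adjusted p 0.000862), and under spike-in scaling it lost its call (−0.13, adjusted p 0.159).

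The deoxynucleotide genes fell furthest, with all 5 called lower and a median change of −3.78. Rrm2, the small subunit of ribonucleotide reductase, whose supply limits the enzyme in S phase, had the largest change of all 46 genes. Its signals were 2.38, 2.34 and 2.48 on control replicates 1, 2 and 3 and −4.22, −4.34 and −4.23 on the Magic-F1 arrays, a 101-fold difference (−6.67, SE 0.06, adjusted p 2.11e-08). The Magic-F1 signal was low, and the change was −4.46 with a normexp background. Rrm1, the large subunit, read 3.68, 3.68 and 3.77 against 2.60, 2.62 and 2.61. It changed least of the 5, by −1.10 (SE 0.046, adjusted p 1.74e-06), with the groups clearly separated.

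Thymidylate synthase (Tyms), which makes dTMP, fell by 4.38 on the log2 scale in the first probe printed above and by 4.49 in the second, which overlaps it. It was 20.8-fold lower by the first probe (adjusted p 5.52e-08). The RefSeq table also holds a transcribed Tyms pseudogene, which these probes may not tell from the gene. Thymidine kinase 1 (Tk1), which salvages thymidine, was 13.7-fold lower (−3.78), and Dut, which removes dUTP, was 9.24-fold lower (−3.21). Tyms, Tk1 and Dut kept changes between −4.44 and −2.80 in every alternative processing.

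Top2a, the topoisomerase that untangles copied DNA, is most abundant late in the cell cycle. It read −2.52, −2.74 and −2.65 on control replicates 1, 2 and 3 and −5.83, −5.70 and −7.23 on the Magic-F1 arrays, none of which measured it well above background. With the Magic-F1 signals raised to a floor, the first probe printed above was 6.29-fold lower and the second 4.83-fold lower. The floor is the lowest signal that was still well above background on a Magic-F1 array, or the probe's own signal where higher. A spot above that floor can still miss the flag, so these values are not strict bounds. The fitted changes were −3.61 (adjusted p 0.000211) and −3.69 (adjusted p 3.25e-05), but they rest on Magic-F1 signals near background, and the probes passed the filter through the control arrays alone. A normexp background gave −1.02 for the first.

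**Figure D3:**
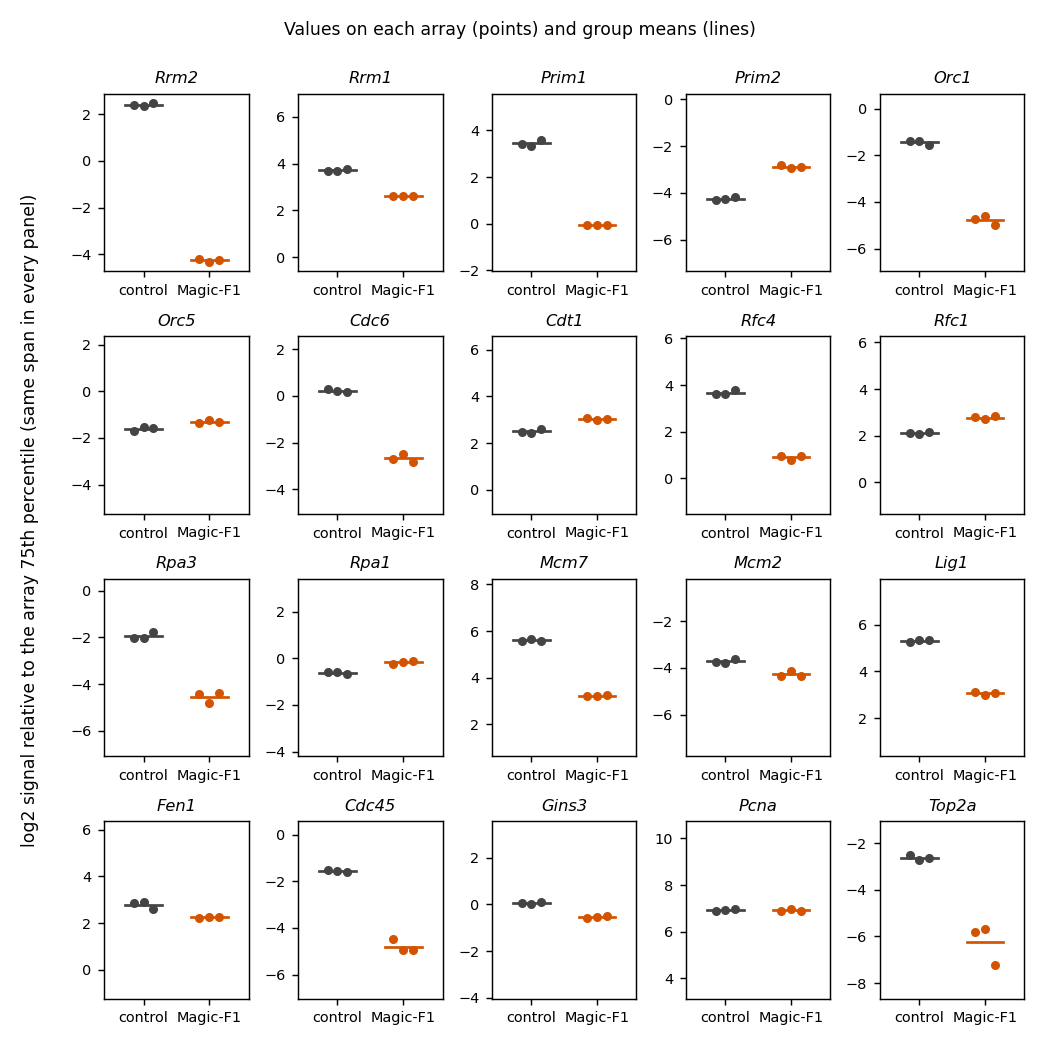
Log2 signal relative to the array's 75th percentile on each array (points, n = 3 per group) and group means (lines) for 20 genes, with the same vertical span in every panel. The Pcna points overlap, the Orc5, Cdt1, Rfc1, Rpa1 and Prim2 points are higher in Magic-F1, and Rrm2 drops from 2.40 to −4.27 on average.

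Genes of 1 role changed by unequal amounts, and ratios within arrays show by how much. For each of the 9 roles with more than 1 tested gene, the log2 ratio of the gene with the lowest change to the gene with the highest change was taken on each array, which removes any scaling of whole arrays. The pairs were chosen for their difference, so the separation of the groups follows from the choice and the sizes are a description, with no test. Rrm2 fell relative to Rrm1 by 5.57 on the log2 scale (SD 0.075 in Magic-F1 and 0.024 in control), and by 3.43 with a normexp background. Prim1 fell relative to Prim2 by 4.88 (SD 0.051 and 0.07), and by 3.62 with normexp.

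Some pairs differed by similar amounts under both backgrounds. The difference of Rfc4 against Rfc1 was −3.43, and −3.33 with normexp, and that of Lig1 against Fen1 was −1.71, and −1.66 with normexp. Mcm7 against Mcm2 gave −1.83, and a slightly larger difference with normexp. Cdc6 against Cdt1 gave −3.42 and −2.56. Other differences shrank with normexp, from −3.63 to −1.50 for Orc1 against Orc5, from −3.05 to −1.45 for Rpa3 against Rpa1 and from −2.63 to −0.86 for Cdc45 against Gins3. The order of the pairs by size therefore depends on the background correction.

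**Figure D4:**
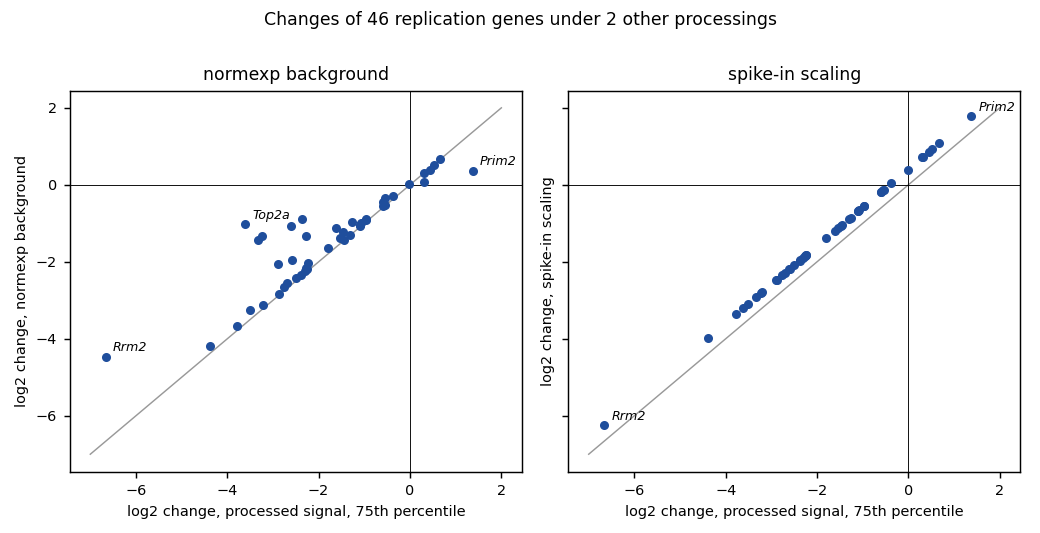
Log2 change of the 46 tested genes with the processed signal scaled on the 75th percentile (horizontal axis) against the change with a normexp background (left) and with spike-in scaling (right); the line marks equal values. Normexp draws dim genes such as Top2a and Prim2 and also Rrm2 towards 0, while spike-in scaling shifts every gene upwards by a similar amount.

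The scale mattered most for genes with small changes. Spike-in scaling moved the median of all tested genes from −0.15 to 0.26 and that of the replication genes from −1.71 to −1.30. That scaling shifts each gene by the same amount, those of the surrounding lists included. Relative to the median of all genes the replication genes were lower by 1.56 under either scale. With spike-in scaling 34 of the 46 genes were called lower and 7 higher, the added one being Pcna. Of all 21186 tested probes 17956 were called in either direction under that scaling. The shares of all genes that fell or rose under it were not counted. Scaling on the array median gave −0.02 for all genes and −1.58 for the replication genes.

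The genes with several probes allowed a check on the measurement. There were 17 such genes, of which 10 had several tested probes, and the tested probes disagreed in direction only for Rfc2, while for Cdc6 only 1 of 2 was called. The other 14 probes were not tested. Of 56 probes named by a RefSeq mRNA 53 were tested, and of 15 named by a cDNA or other GenBank accession 4 were. The untested extra probes belonged to Orc4, Orc5, Mcm4, Cdc7, Dbf4, Pola2, Pole, Rrm1, Tyms, Dut and Top2a, and none of them was well above background on any array, except that of Cdc7 on 1 array of each group.

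Genes around the replication machinery were also read from lists. Of 29 tested other replication factors, 24 fell, 3 rose and 2 were not called, with a median change of −1.33. The largest changes were in Dscc1, which loads the clamp for sister chromatid cohesion (−3.64), Mtbp, which helps to fire origins (−2.92), the helicase Recql4 (−2.59) and Tipin of the fork protection complex (−2.37). Top2b, a topoisomerase that resting cells also use, was higher (0.49, chosen after its value was seen). Of 14 tested genes for chromatin assembly at the fork, 11 fell and 3 rose, among them the histone-binding protein Rbbp4 (−2.92), the histone chaperones Asf1a (−2.48) and Asf1b (−2.18) and the methylation cofactor Uhrf1 (−1.99), while the maintenance methyltransferase Dnmt1 rose (0.95, chosen after its value was seen).

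Among 20 other deoxynucleotide and salvage genes, 15 fell, 4 rose and 1 was not called. Shmt1, which supplies one-carbon units for thymidylate, fell by 4.26 on the log2 scale. Among the 4 largest changes, 3 were in genes that no Magic-F1 array measured well above background. Against the floor used for Top2a, which is not a strict bound, Cda was 30.1-fold lower, Mthfd2 3.55-fold and Upp1 3.27-fold. The 4 that rose were Tk2 (2.28) and Dguok (0.82), kinases that salvage nucleosides in mitochondria, Samhd1 (0.98), which breaks down deoxynucleotides, and Dck (0.68), the cytosolic deoxycytidine kinase. They were named after their values were seen. The thymidine kinases thus went opposite ways, with Tk1 at −3.78 and Tk2 at 2.28, and the difference itself was not tested.

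De novo purine and pyrimidine genes were lower in 16 of 20, higher in 3 and not called in 1. Ctps, which makes CTP, fell by 2.79, and Ppat, the first enzyme of purine synthesis, by 2.20 on the log2 scale. Prps1 and Prps2, which both make the ribose phosphate donor, changed by −2.49 and 2.50. The E2F and RB family, transcription factors and repressors of the cell cycle, was lower in 10 of 14, higher in 3 and not called in 1, with a median of −0.49. E2f7 (−2.74), E2f8 (−2.37) and E2f2 (−2.33) fell, and Rbl2, the pocket protein p130 of resting cells, rose by 2.66. E2f1, an activator of replication genes, also rose (0.89, chosen after its value was seen). All 13 tested proliferation markers of later cell cycle stages fell, with a median of −3.63, among them Ccnb1 (−5.21), Birc5 (−4.37), Cdc20 (−4.19) and Ube2c (−3.92), and their summed signal was 19.97 to 20.5 against 288 to 304.

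The promoters of the replication genes were read from RefSeq windows of GRCm38.p6 that run from 250 bases before each transcript start to 50 after it, and 39 of the 47 genes had one. Gins1, Gins2, Gins4, Gmnn, Mcm4, Pole, Prim2 and Rfc2 were not matched. Letters of an E2F-type motif, spelled TTTGGCGC, TTTCCCGC, TTTCGCGC or TTTGCCGC and searched on both strands, stood in 13 of the 39 windows (33.3%), against 2.60% of 27025 genes with a window and 3.29% of 17492 protein-coding genes. These motifs contain CG, and the windows of the replication genes were rich in it, with a median of 23 CG against 15 in protein-coding genes. Among windows with at least 10 CG the shares were 34.3% of 35 replication genes and 4.95% of 10408 protein-coding genes. A CCAAT box (CCAAT, both strands) stood in 61.5% of the 39 windows against 42.3% of protein-coding genes, and a CHR element (TTTGAA, both strands) in 20.5% against 18.5%. In windows with at least 10 CG the CCAAT box stood in 60% of replication genes against 39.5% of protein-coding genes. The CHR element stood in 20% against 10.4% there. These are matches of letters, not measured binding sites.

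The motif did not sort the genes by their change. The 12 tested genes with E2F-type letters had a median change of −2.26 and the 26 tested genes without them −2.25. The former were Orc1, Cdc6, Rfc3, Mcm7, Pole2, Mcm5, Lig1, Mcm6, Mcm3, Gins3 and Pold1, all called lower, and Cdt1, which rose. Pola1 also had the letters but was not measured. The letters were not in the windows of Rrm2, Tyms, Tk1 and Dut, which fell most among the deoxynucleotide genes.

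Stretches ending at the base before the transcript start show these arrangements, with capitals for matches of the 3 motifs on either strand. Mcm5 (chr8:75109339-75109508, plus strand) and Mcm6 (chr1:128359706-128359825, minus strand) were chosen for overlapping E2F-type letters on both strands, Orc1 (chr4:108579324-108579453, plus strand) and Cdc6 (chr11:98908001-98908150, plus strand) for a single match and a large fall. Rrm2 (chr12:24708154-24708253, plus strand) and Top2a (chr11:99024190-99024429, minus strand) fell without such letters, and Rpa1 (chr11:75348384-75348483, minus strand) rose. All are written 5′ to 3′ on the strand of the gene.
Mcm5: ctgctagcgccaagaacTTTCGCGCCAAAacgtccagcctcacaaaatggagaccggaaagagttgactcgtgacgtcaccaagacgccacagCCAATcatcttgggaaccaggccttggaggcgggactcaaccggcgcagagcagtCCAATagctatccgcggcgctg
Mcm6: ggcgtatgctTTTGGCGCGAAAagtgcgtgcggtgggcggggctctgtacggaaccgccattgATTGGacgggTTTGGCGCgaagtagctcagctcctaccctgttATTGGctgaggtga
Orc1: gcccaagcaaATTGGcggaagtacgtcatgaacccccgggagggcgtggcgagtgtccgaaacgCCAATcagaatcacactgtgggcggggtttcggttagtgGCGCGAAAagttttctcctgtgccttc
Cdc6: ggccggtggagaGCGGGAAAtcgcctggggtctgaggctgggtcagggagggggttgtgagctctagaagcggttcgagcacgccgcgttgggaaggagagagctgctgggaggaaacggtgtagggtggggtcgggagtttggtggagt
Rrm2: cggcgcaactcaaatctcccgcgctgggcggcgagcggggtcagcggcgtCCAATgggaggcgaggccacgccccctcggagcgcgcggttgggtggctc
Top2a: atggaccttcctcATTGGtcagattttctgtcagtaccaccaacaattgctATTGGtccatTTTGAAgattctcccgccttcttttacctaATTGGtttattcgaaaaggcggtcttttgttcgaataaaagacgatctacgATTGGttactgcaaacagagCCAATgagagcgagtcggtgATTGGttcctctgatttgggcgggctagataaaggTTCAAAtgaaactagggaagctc
Rpa1: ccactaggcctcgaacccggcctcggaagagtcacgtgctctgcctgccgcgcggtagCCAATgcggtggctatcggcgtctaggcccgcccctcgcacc
The Mcm6 stretch holds E2F-type matches that start 110, 106 and 47 bases before the transcript start, the first 2 of them overlapping, and Mcm5 holds an overlapping pair that starts 153 and 149 bases before it. In Orc1 the match starts 27 bases before the start and in Cdc6 138 bases before it. The Rrm2 stretch holds a single CCAAT box that begins 50 bases before the start, and the Top2a stretch holds 6 CCAAT boxes and 2 CHR elements. Rpa1, which rose, has a single CCAAT box in the printed stretch and no E2F-type letters in its window.

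**Figure D5:**
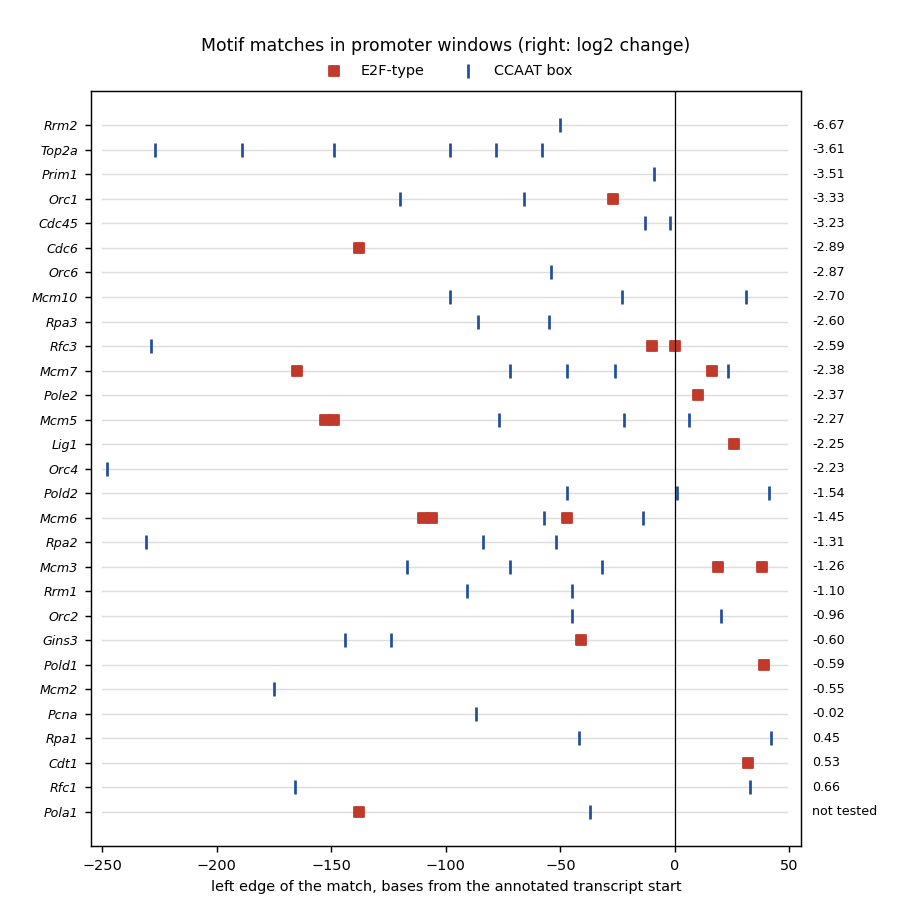
Position of E2F-type letters (squares) and CCAAT boxes (ticks), as bases of the left edge from the annotated transcript start, in the windows of the genes that hold at least 1 of them, ordered by log2 change (right). E2F-type letters occur in genes with changes from −3.33 (Orc1) to 0.53 (Cdt1), and Rrm2, Top2a and Prim1 at the top have CCAAT boxes but no E2F-type letters. CHR elements are not drawn.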

How the data were processed

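The analysis began from scanner files of 6 single-colour arrays (Agilent design 014868). Per the file headers, the intensity of a spot is the processed signal of Agilent Feature Extraction 10.5.1.1, with its background subtracted and arrays not normalized to each other. A table of log2 values was deposited as well. It equals the log2 processed signal within 1e-06 for 4 arrays and holds other values for both arrays numbered 1, so it served as an alternative only.

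Control spots and outlier-flagged spots (59 to 89 per array) were left out, the 75th percentile of an array was subtracted from its log2 processed signals, and spots of a probe were averaged. Probes were named through RefSeq accessions or symbols of GRCm38.p6, used for names and promoter windows, while probe positions are on mm9. Of several tested probes of a gene, the brightest on average stood for the gene. Of 41174 probes 21186 were tested with limma 3.58.1 (lmFit, eBayes, R 4.3.3), fitting group alone, and 18590 were called.

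Groups come from the sample labels and replicate numbers from the titles. Slide 1 held replicates 1 and 3 of either group, and slide 2 held replicate 2. Every gene of the set is named, with values in every sample for those with the largest and smallest change in each role and those whose probes disagree; up to 4 genes of each surrounding pathway list are named by rule, called ones first and then by size. Further genes of those lists are marked in the text as chosen after their values were seen. Cell type markers that a group did not measure well above background are named for the granulocyte, satellite cell and endothelial lists only. The genes and lists were chosen with earlier results of these data known. The 18 alternatives covered background (normexp, offset 50), scaling, filters, blocks, slides, the deposited table, mean of probes and leaving out each array.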

Additional observations from a re-analysis of the deposited data

How the results depend on the processing

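The counts of genes called lower, called higher and at least 2-fold lower stayed within 1.5 times the reported counts in every alternative that allowed a test. The shares of all tested genes called lower or higher were not counted in the alternatives. Slide 2 holds 1 array per group and gave values without a test, with a median of −1.72 and a Top2a change of −2.96, while slide 1 gave 39 genes lower, 6 higher and 32 at least 2-fold lower. The median change of the replication genes was −1.26 with a normexp background, −1.58 with median scaling, −1.30 with spike-in scaling, −1.62 without a filter on dim probes, −1.51 for probes well above background on all 6 arrays and −1.60 with the mean of a gene's tested probes. Leaving out each array in turn gave medians from −1.74 to −1.68 and 39 genes lower, 6 higher and 32 at least 2-fold lower each time. Pcna changed sign with a normexp background (0.024), quantile normalization (0.43), median scaling (0.11) and spike-in scaling (0.39) and within slide 2 (0.048, no test), and Pola2 with spike-in scaling (0.041), and the cause was not tested. The replicate block (paired by number) gave 39 genes lower, 6 higher and 32 at least 2-fold lower, as did slide as a block, and it called 18547 probes against 18590. Deviations from the group means of same-numbered arrays correlated from −0.00295 to 0.108, and 2 of 3 Magic-F1 arrays were closest to the control array of their own number, so the numbers were not taken to pair the samples. Signal over background limits Top2a, Orc1, Cdc45, Pole2, Rpa3, Prim2, Mcm2 and Rrm2. A normexp background also shrank the changes of Cdc7, Cdc6, Dbf4, Rfc3 and Orc5. The number of arrays limits all.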
